A study of Mus musculus with 6 samples.

Results

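The genes described here are 8 members of the SOX transcription factor family, Sox3, Sox4, Sox5, Sox6, Sox11, Sox12, Sox13 and Sox15, measured in the mouse fetal gonad with and without an intact Sox9 gene. They were chosen by name, as a set of SOX genes that leaves out Sox9, from 19937 genes with a probe set of their own, and each of the 8 had 1 such probe set. RNA came from gonads without mesonephros at E13.5 (embryonic day) and was hybridised to 6 Affymetrix arrays. Wild-type gonads filled 3 arrays (numbers 1, 2 and 5 in the labels), each from a pool of 6 gonads. Gonads of genotype Sox9flox/flox; Sf1:creTr/+ filled 3 arrays (numbers 3, 4 and 6), each from a pool of 12, and are called the Sox9 mutant. All animals had a mixed background of C57BL6/J and 129. In the mutant, Cre under Sf1 (Nr5a1) control, and so active in somatic cells of the gonad, recombines the floxed Sox9 alleles. No group carried the Cre or the floxed alleles alone, the labels give neither embryo sex nor litter, and pool size went with genotype.

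SOX proteins bind DNA through an HMG box, which sits in the minor groove and bends the helix, and are sorted into groups by the likeness of that box. SOX3 belongs to the SOXB1 group, SOX4, SOX11 and SOX12 to SOXC, SOX5, SOX6 and SOX13 to SOXD, and SOX15 is the SOXG member. SOX9, of the SOXE group, directs Sertoli cell differentiation in the fetal testis, and in cartilage it works together with SOX5 and SOX6, which lack an activation domain of their own. The comparison asks whether other SOX genes differ when Sox9 is deleted in the gonad.

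None of the 8 genes passed an adjusted p of 0.05 in the comparison of mutant with wild type (limma, Benjamini-Hochberg over 28187 probe sets), where 6.94% of all genes did, 2.64% higher and 4.3% lower in the mutant. At an unadjusted p of 0.05, 2 of the 8 passed, Sox5 and Sox13, against 21.7% of all genes. The difference, mutant minus wild type on the log2 scale, was negative for 7 and positive for Sox5, and ran from -0.39 to 0.29 with a median of -0.22, against a median of 0.0041 over all genes. The 3 mutant values did not overlap the 3 wild-type values for 4 of the 8, with Sox5 higher and Sox6, Sox11 and Sox13 lower in the mutant; 28.7% of all genes had no overlap, 12.1% higher and 16.6% lower. The 95% intervals of the differences (from the limma fit, not adjusted for the number of genes) reached at the farthest -0.80 log2, a 1.75-fold lower level, for Sox15, and 0.56 log2, a 1.47-fold higher level, for Sox5. A 2-fold difference lay outside the interval of each of the 8 on this scale, on which RMA compresses the differences of dim probe sets. Separate litters are not stated for the pools of a group, and the p-values reflect the spread of these pools alone, part of which may be technical. In whole gonads, fewer cells of a type and less RNA per cell cannot be told apart.

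The table's values come from RMA, which gives log2 brightness per probe set. Probe sets of olfactory and vomeronasal receptors served to set a background mark at their 95th percentile, 6.67 log2. All 8 genes had a mean above it over the 6 arrays, as did 13018 of all 19937 genes. Of the 8, 7 were above the mark on every array. Sox15 was above it on 5 of 6.

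The deleted gene and the state of the tissue set the frame. Sox9 itself fell by 1.31 log2, with an SE of 0.14 (adjusted p = 0.00124 in limma). Which exons were floxed is not stated, and the probe set may or may not read them. Of 12 Sertoli cell markers 10 fell, of 10 pregranulosa markers 9 rose and of 10 meiotic genes 6 rose. Each of 4 measured Leydig cell markers fell. Of 10 germ cell markers 3 fell, but the list was split in direction, with 5 negative and 5 positive differences. Over all genes 2.64% passed as higher and 4.3% as lower. No neuronal marker of 7, endothelial marker of 8 or liver gene of 7 passed the limma test, against 6.94% of all genes. At an unadjusted p under 0.05 there were 1, 4 and 1, against 21.7% of all genes. Of the 4 endothelial markers, Kdr was higher and Cdh5, Esam and Tek were lower in the mutant. The mean log2 level of the Sertoli list was 9.74 to 9.81 on wild-type arrays and 7.28 to 8.42 on mutant arrays, and that of the pregranulosa list 7.12 to 7.22 and 8.69 to 8.84. Mutant 4 stood apart among the mutants, with means of 8.42 for the Sertoli list and 8.85 for the Leydig list, against 7.28 and 7.34, and 6.45 and 6.33, on mutants 3 and 6. Wild-type means of the Leydig list were 10.85 to 10.93. That of the liver list was 9.36 on wild type 5 and 6.27 to 6.55 on the 5 other arrays. The part of these cell types in the SOX differences was not tested.

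Values of the SOXD genes did not overlap between groups, with Sox5 higher and Sox6 and Sox13 lower in the mutant, though none passed the limma test. Absence of overlap was common (28.7% of all genes) and also held for Sox11, of SOXC. For the opposite directions within SOXD, the sequences before the start sites of Sox5, Sox6 and Sox13 are shown as a description. Each is the 250 bases before a RefSeq transcript start in GRCm38.p6, read on the minus strand of the genome, 5′ to 3′, and capitals mark matches to ACAATG or ACAAAG, 2 forms of the core that SOX proteins bind, searched on both strands. For Sox6, which has 6 windows in the table, the one farthest upstream is given. The Sox5 window is chr6:143947107-143947356, the Sox6 window chr7:116038745-116038994 and the Sox13 window chr1:133424213-133424462.
Sox5: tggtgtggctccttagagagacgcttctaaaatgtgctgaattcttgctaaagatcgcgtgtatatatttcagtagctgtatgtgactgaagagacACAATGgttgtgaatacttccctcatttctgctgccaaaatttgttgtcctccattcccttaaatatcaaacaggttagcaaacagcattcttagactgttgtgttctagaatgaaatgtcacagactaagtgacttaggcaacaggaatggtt
Sox6: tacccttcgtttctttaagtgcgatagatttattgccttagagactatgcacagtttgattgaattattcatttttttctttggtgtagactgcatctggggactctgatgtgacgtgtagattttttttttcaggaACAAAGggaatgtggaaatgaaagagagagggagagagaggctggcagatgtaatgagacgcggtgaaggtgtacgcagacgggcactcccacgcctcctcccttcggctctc
Sox13: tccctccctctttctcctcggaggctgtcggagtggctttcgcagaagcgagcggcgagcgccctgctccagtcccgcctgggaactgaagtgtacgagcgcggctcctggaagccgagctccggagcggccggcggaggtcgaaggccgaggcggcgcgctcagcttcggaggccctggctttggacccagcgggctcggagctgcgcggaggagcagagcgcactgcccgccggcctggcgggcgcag
The Sox5 window holds 1 match, ACAATG, which begins 154 bases before the start. The printed Sox6 window holds ACAAAG, beginning 113 bases before it, and 5 of the 6 Sox6 windows hold a match. The Sox13 window has none. Of 32851 windows of this length 25.2% hold either form, so a match is frequent and is a description of letters, not a binding site. The windows differ in composition. The Sox5 window has 39.6% G or C and 3 CpG pairs, the printed Sox6 window 45.2% and 9, and the Sox13 window 72.4% and 31. Medians over all windows are 52.4% and 6. In G or C, the printed Sox6 window lies below the median as Sox5 does, though Sox6 was lower in the mutant. In all, 7 of the 8 genes had a window in the table, and Sox5 was the only gene of the 6 with a single window to hold a match.

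**Figure D1:**
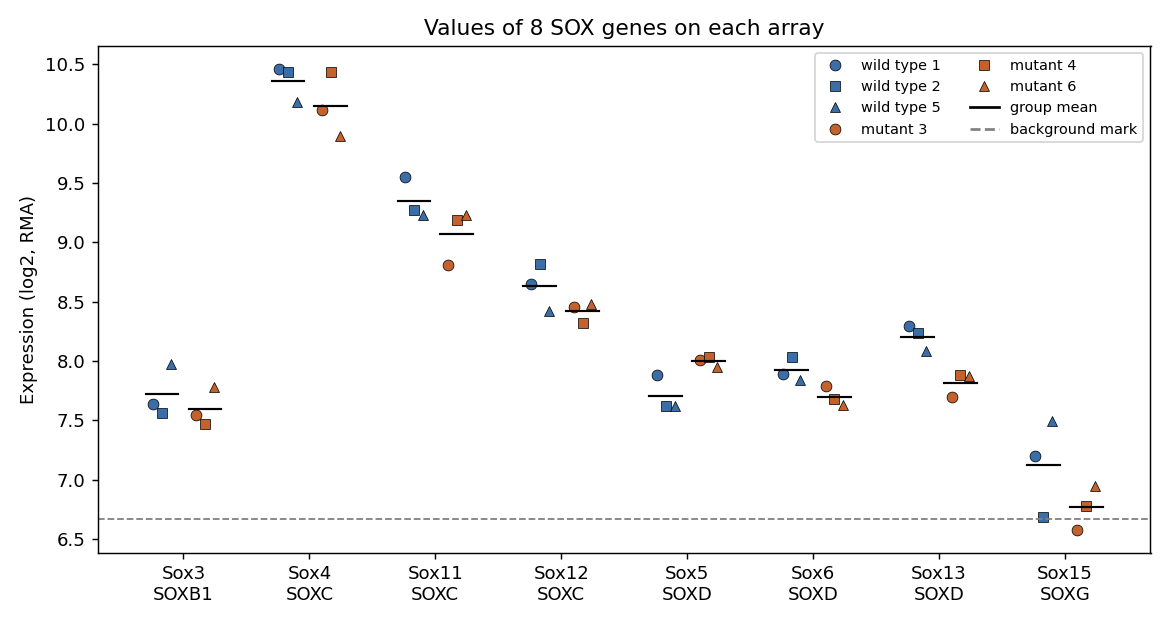
Log2 expression (vertical axis) of the 8 SOX genes (horizontal axis, with their SOX group) on each array. Blue points are the 3 wild-type arrays, orange points the 3 mutant arrays, black bars the group means and the dashed line the background mark at 6.67. Mutant points lie above all wild-type points for Sox5 and below them for Sox6, Sox13 and, barely, Sox11. Levels of different genes come from different probe sets and are not compared.

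Among the SOXD genes, Sox13 measured 8.29, 8.24 and 8.08 log2 on wild types 1, 2 and 5 and 7.69, 7.88 and 7.87 on mutants 3, 4 and 6. Every mutant value lay below every wild-type value. SOX13, first known as an autoantigen of pancreatic islets, also acts in T cell development, where it binds a TCF factor. Its difference of -0.39 ± 0.12 log2 (SE), a 1.31-fold lower level in the mutant, was the largest in size of the 8 but did not pass (limma adjusted p = 0.101, 95% interval from -0.65 to -0.12). Over the alternatives the adjusted p of Sox13 ran from 0.0545, among probe sets above the background mark, to 0.294.

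Sox5 was the single gene of the 8 with higher values in the mutant. It measured 7.88, 7.62 and 7.62 log2 on wild types 1, 2 and 5 and 8.01, 8.04 and 7.95 on mutants 3, 4 and 6. The mutant arrays lay close together, with an SD of 0.04 against 0.15 in wild type, and the gap between the groups was set by wild type 1. The difference was 0.29 ± 0.12 log2 (SE; limma adjusted p = 0.212, 95% interval from 0.03 to 0.56), a 1.23-fold higher level. Without wild type 1 it was 0.38 log2 (adjusted p = 0.193).

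Sox6, which in red cell precursors silences embryonic globin genes, measured 7.89, 8.03 and 7.84 log2 on wild types 1, 2 and 5 and 7.79, 7.68 and 7.63 on mutants 3, 4 and 6. The groups were separate, though the lowest wild-type and the highest mutant array were close. The difference was -0.22 ± 0.11 log2 (limma adjusted p = 0.329, 95% interval from -0.48 to 0.03). Sox6os, a noncoding transcript named for the Sox6 locus with a probe set of its own, had wild-type values of 6.88 ± 0.15 and mutant values of 6.97 ± 0.18 log2 (SD, n = 3 each; limma adjusted p = 0.773); it was looked up after the values were seen.

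Genes that SOX5 and SOX6 serve in cartilage together with SOX9, the product of the gene deleted here, were followed as a list. So were the erythroid genes that SOX6 is known for. Of 13 cartilage genes 1 fell, Col9a3, a chain of type IX collagen, from 9.48 ± 0.16 to 8.12 ± 0.22 log2 (SD, n = 3 each; limma adjusted p = 0.00113). The other 12 did not pass, and the list's median difference was -0.22. Over all genes 4.3% passed as lower. Of the 13, 4 had an unadjusted p under 0.05 (limma), against 21.7% of all genes. For 6 of the 13 every mutant value lay below every wild-type value, against 16.6% of all genes. Col9a2, named after its values were seen, differed by -0.52 log2 and missed the threshold (limma adjusted p = 0.0680). Col2a1, the main collagen of cartilage, was also named after its values were seen. It measured 8.28 ± 0.11 and 8.06 ± 0.06 log2 (limma adjusted p = 0.326). The erythroid list had its highest mean level on wild type 5, the array with high liver genes, at 8.68 log2 against 7.88 to 8.36 elsewhere. The part of that array in the list's differences was not tested. Of 7 measured erythroid genes 1 fell, against 4.3% of all genes, and 6 did not pass (median difference -0.33). Alas2, the first enzyme of heme synthesis in red cells, fell by 0.51 ± 0.12 log2 (SE, limma adjusted p = 0.0334). The call of Alas2 ended when any 1 of the 6 arrays was left out (adjusted p from 0.0710 to 0.121). The embryonic globin gene Hbb-y, chosen after its values were seen, measured 12.59, 12.72 and 12.74 log2 on wild types 1, 2 and 5 and 11.87, 12.51 and 12.67 on mutants 3, 4 and 6. Mutant 3 was low there and the groups were otherwise close (difference -0.33 log2, limma adjusted p = 0.405).

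Of 4 measured TCF/LEF and beta-catenin genes, the nuclear end of the WNT pathway, 1 rose, against 2.64% of all genes, and 3 did not pass. Lef1 rose from 8.46 ± 0.06 to 9.21 ± 0.24 log2 (SD, n = 3 each, limma adjusted p = 0.0154). The list's median difference was -0.06. The Lef1 call ended without wild type 1 or 2 or mutant 3 (adjusted p = 0.0667, 0.0630 and 0.0630).

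The SOXC genes encode activators found in many embryonic progenitor cells. Sox4 measured 10.46, 10.43 and 10.18 log2 on wild types 1, 2 and 5 and 10.12, 10.43 and 9.90 on mutants 3, 4 and 6. The groups overlapped, with mutant 4 at the level of wild type 2, and the arrays numbered 5 and 6 were the lowest of their groups. The difference was -0.21 ± 0.16 log2 (SE; limma adjusted p = 0.532, 95% interval from -0.56 to 0.14). It was -0.08 without mutant 6 and -0.35 without mutant 4, the mutant array with the higher Sertoli and Leydig levels.

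Sox11 measured 9.55, 9.27 and 9.23 log2 on wild types 1, 2 and 5 and 8.81, 9.18 and 9.23 on mutants 3, 4 and 6. Mutant 6 was lower than wild type 5 by less than 0.01 log2, so the absence of overlap rests on that pair, while mutant 3 was the low array. The difference was -0.28 ± 0.15 log2 (SE; limma adjusted p = 0.370, 95% interval from -0.62 to 0.06). Without mutant 3 it was -0.14 log2 and without wild type 1 it was -0.18 log2. Leaving out any other single array made it larger in size, from -0.32 (wild type 2) to -0.35 log2 (mutant 6).

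Sox12, whose product is a weaker activator than SOX4 and SOX11, measured 8.65, 8.81 and 8.42 log2 on wild types 1, 2 and 5 and 8.45, 8.32 and 8.48 on mutants 3, 4 and 6. Wild type 5 lay below 2 of the mutant arrays. The difference was -0.21 ± 0.13 log2 (SE; limma adjusted p = 0.434, 95% interval from -0.51 to 0.08). It was -0.12 without wild type 2 and -0.32 without wild type 5.

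None of 6 genes linked to SOXC factors passed the limma test, against 6.94% of all genes, and their median difference was -0.04. At an unadjusted p under 0.05, 1 gene of the 6 passed, against 21.7% of all genes. That gene was Map2, named after its values were seen, which was 0.32 log2 higher in the mutant (limma adjusted p = 0.182). Of the 6, 2 had mutant values above all wild-type values, against 12.1% of all genes, and 0 had them below. Ezh2, a histone methyltransferase, was at 10.62 ± 0.13 log2 on wild-type and 10.64 ± 0.19 on mutant arrays (limma adjusted p = 0.959). Tead2, a partner of the Hippo pathway's coactivators, measured 10.18 ± 0.12 and 10.05 ± 0.04 log2 (SD, n = 3 each; limma adjusted p = 0.587). Both group means of 3 of the 6 lay below the background mark.

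Sox3, the X-linked gene from which Sry is thought to derive and whose ectopic activity can drive testis formation, measured 7.64, 7.56 and 7.97 log2 on wild types 1, 2 and 5. It measured 7.54, 7.47 and 7.78 on mutants 3, 4 and 6. The groups overlapped, and the highest values of each were on the arrays numbered 5 and 6. The difference was -0.13 ± 0.14 log2 (SE; limma adjusted p = 0.717, 95% interval from -0.45 to 0.20), the smallest in size of the 8. Without wild type 5, the array with high liver genes, it was -0.0027 log2, and without mutant 6 it was -0.22 log2.

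Sox15, known from muscle precursors and placental giant cells, measured 7.20, 6.69 and 7.49 log2 on wild types 1, 2 and 5 and 6.58, 6.78 and 6.95 on mutants 3, 4 and 6. Its wild-type arrays spread most of the 8 genes (SD 0.41), and wild type 2 lay within the mutant range, near the background mark. The difference was -0.36 ± 0.20 log2 (SE; limma adjusted p = 0.381, 95% interval from -0.80 to 0.09). It was -0.18 log2 without wild type 5, its highest array and the one with high liver genes, and -0.58 without wild type 2.

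Among 7 partners and targets of SOXB1 and SOXG factors, Utf1 and Nes fell and 5 did not pass, where 4.3% of all genes fell. The list's median difference was -0.18. Utf1, a chromatin factor of pluripotent and early germ cells, fell by 1.39 ± 0.29 log2 (SE, adjusted p = 0.0259 in limma), a call that ended without wild type 1, 2 or 5 (adjusted p = 0.110, 0.0820 and 0.0629) and with eBayes using trend and robust (0.0705). Nes, which encodes the intermediate filament nestin, fell by 1.23 ± 0.13 log2 (limma adjusted p = 0.00113).

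**Figure D2:**
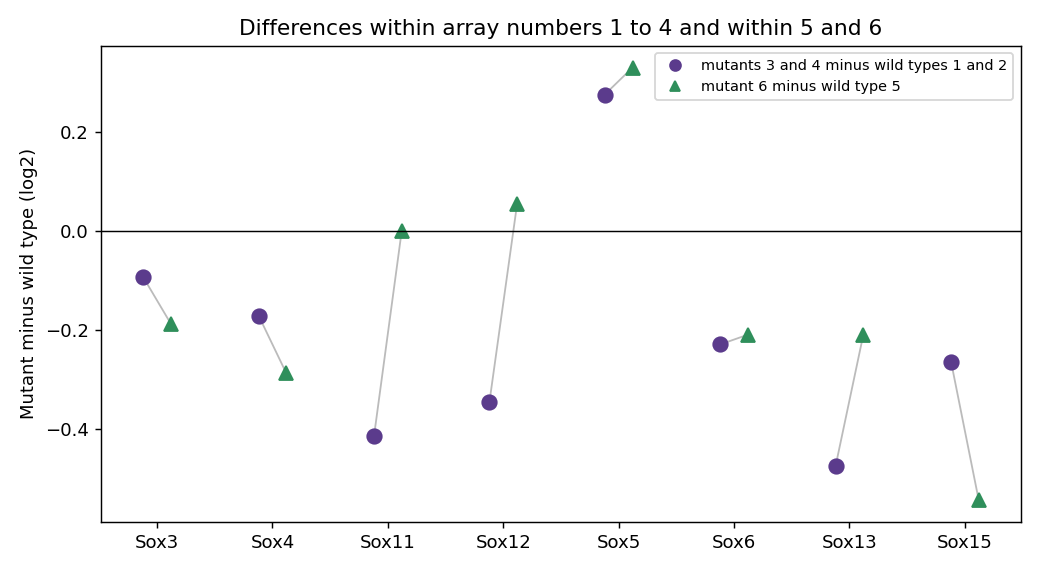
Difference of each of the 8 SOX genes (horizontal axis), mutant minus wild type in log2 (vertical axis), computed within the array numbers 1 to 4 (purple circles, mean of 2 mutants minus mean of 2 wild types) and within 5 and 6 (green triangles, 1 array each). Both values lie within 0.1 log2 of each other for Sox3, Sox5 and Sox6, while Sox11 and Sox12 lie near 0 in the pair 5 and 6.

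The labels name no batch. Array numbers 1 to 4 and numbers 5 and 6 each hold both genotypes, so each difference was also taken within numbers. Whether 5 and 6 form a batch was not tested. For Sox11, Sox12 and Sox13, wild type 5 lay below the mean of wild types 1 and 2, while mutant 6 lay above that of mutants 3 and 4. Sox5 was 0.27 log2 higher in the mutant within numbers 1 to 4 and 0.33 within 5 and 6. The difference of Sox6 was -0.23 and -0.21, that of Sox3 -0.09 and -0.19 and that of Sox4 -0.17 and -0.29. Those of Sox13 were -0.48 and -0.21 and those of Sox15 -0.26 and -0.54. Sox12 was -0.35 within numbers 1 to 4 and 0.05 within 5 and 6, where mutant 6 exceeded wild type 5. Sox11 was -0.42 within the first set. The pair 5 and 6 holds 1 array per group and allows no test. With numbers 5 and 6 as a batch term, the adjusted p of Sox13 was 0.0710 and that of Sox5 0.148, and none of the 8 passed, against 4.11% of all genes higher and 6.22% lower.

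**Figure D3:**
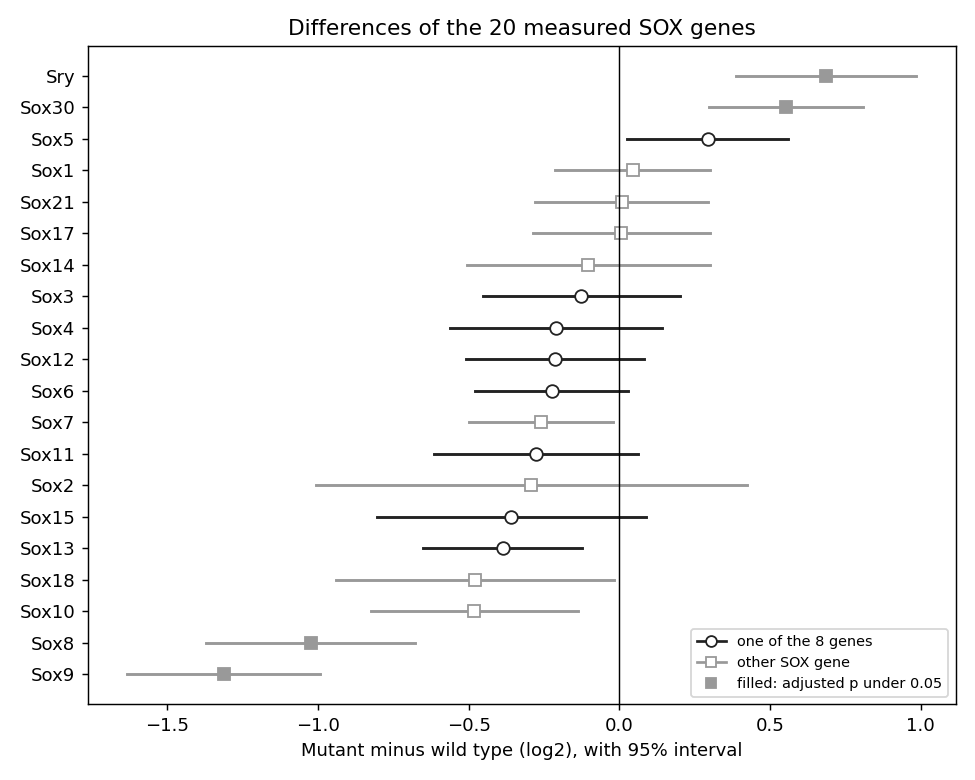
Differences, mutant minus wild type in log2, of the 20 measured SOX genes with the 95% interval of the limma fit. Black circles are the 8 genes described here, grey squares the 12 others, and filled symbols passed an adjusted p of 0.05. The 8 lie between -0.39 and 0.29, while Sox9 and Sox8 lie at -1.31 and -1.02 and Sry at 0.69.

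Of the 12 other measured SOX genes 2 rose, 2 fell and 8 did not pass (median difference -0.18). Over all genes 2.64% rose and 4.3% fell. Sox9 and its relative Sox8 fell (-1.31 and -1.02 log2, limma adjusted p = 0.00124 and 0.00560), and Sry rose by 0.69 log2 (adjusted p = 0.0181), a call that ended without wild type 1 or 2 or mutant 4 (adjusted p up to 0.0879). Sox30, a gene of male germ cells, rose by 0.55 log2 with both group means below the background mark (5.96 and 6.52), and its call ended without any 1 array other than mutant 6 (adjusted p from 0.0628 to 0.0906). The change of each of the 8 genes was also set against that of Sox9, a comparison added after the values were seen. The log2 value minus that of Sox9 on the same array was higher on all mutant than on all wild-type arrays for each, by 0.93 log2 for Sox13 up to 1.61 for Sox5. The exact permutation test, two-sided, gave p = 0.10 for each (0.10 adjusted over the 8), the smallest that 3 arrays against 3 allow. The fall of Sox9 is part of each of these values, so the test does not bear on the 8 genes themselves. The same separation held by non-overlap for 98.4% of all other genes, so it is no mark of these 8.

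With no gene of the 8 past the threshold, the genes most like Sox13 and Sox15, the largest differences, were sought. The measure was the root mean square difference of mean-centred log2 values over the 6 arrays. The search covered 12522 genes with an official symbol and a mean above the background mark. Nearest to Sox13 were Cluh (0.02 log2), Usp27x (0.02) and Ust (0.03), which encode a factor for mitochondrial distribution, a deubiquitinase and a uronyl sulfotransferase. That choice fixes their group differences near that of Sox13. Nearest to Sox15 were Olfml1 (0.06 log2), Egln3 (0.09), an oxygen-sensing prolyl hydroxylase, and Mrpl16 (0.09), a mitochondrial ribosomal protein.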

How the data were processed

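The authors deposited log2 values per probe set, made with RMA per the submitters' processing notes; its settings and version are not given in these sources. RMA forces equal distributions on the arrays, so a general change in RNA content cannot be seen. Of 34760 table rows, 6573 with identifiers below the lowest annotated one were left out as the control block, and 28187 were tested. The test was two-sided limma (version 3.58.1, R 4.3.3; lmFit, eBayes), checked on simulated data, with p adjusted by Benjamini-Hochberg and a threshold of 0.05; the 6 arrays leave 4 residual degrees of freedom. A gene is its single-gene probe set with the highest mean. The number of arrays limits the precision. The 8 genes and the lists were chosen with earlier results of these data known. Of each SOX or pathway list, up to 4 called genes are named, or the 2 brightest where none was called, and for the 2 genes with the largest difference the 3 nearest genes; others are marked. Alternatives were other normalizations, filters, variance models, arrays and probe set summaries; the comparison with Sox9 and alternatives for other named genes were added after seeing the data. Sequences are RefSeq's. Figures used matplotlib 3.10.9.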

Additional observations from a re-analysis of the deposited data

How the results depend on the processing

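None of the 8 SOX genes passed, in either direction, under any of the 15 alternative fits or at an adjusted p of 0.01. In 4 of the fits the differences equal the reported ones by construction. In the 11 others, 87 of 88 values kept their direction; the exception was Sox3 at 0.061 log2 without wild type 5 and mutant 4, and the cause was not tested. Across all alternatives the differences lay between -0.58 and 0.38 log2 and the adjusted p between 0.0545 and 0.996. Leaving out each array in turn gave -0.45 to -0.33 log2 for Sox13, 0.25 to 0.38 for Sox5 and -0.27 to -0.17 for Sox6. No paired analysis was possible because the groups share no replicate number. With 3 arrays a group and RMA values, small differences of dim genes such as Sox15 are at the limit of what can be seen.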
